A study of Mus musculus with 3 samples.

Results

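Macrophages of a healing skin wound that carry Mmp12, Spp1, Gpnmb and Rgs1 were described in 3 single-cell libraries of mouse skin. A cell was taken when it held at least 3 UMIs (counted transcript molecules) of these 4 genes together, and at least as many of them as of the resident macrophage genes Mrc1, Cd163, F13a1, Cd209f and Cd209g. It also needed at least 1 UMI of the leukocyte genes Ptprc, Csf1r, Fcer1g or Tyrobp, at most 1 UMI each of the pigment cell pair Pmel and Dct and of the hair pair Krt35 and Krt71, and at most 2 UMIs of Pecam1 and Col1a1 together. By this rule 584 of 26953 filtered cells were members, of which 208 of 6039 came from the untreated library, 70 of 11302 from GelMA and 306 of 9612 from AN-GelMA. The members were thus chosen by measured UMI counts, and the levels of the genes in the rule are given as a description.

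All 3 wounds were full-thickness, 5 mm wide and splinted, on the backs of C57BL/6J mice, all female and at postnatal day 50. Tissue was taken at day 5 with 2 mm of the skin around it. The untreated wound (titled Sham) received no gel. The GelMA wound received 20 µL of gelatin methacryloyl, a gelatin hydrogel set under ultraviolet light for 1 min, and the AN-GelMA wound the same gel loaded with apoptotic neutrophils. The files of the AN-GelMA library carry the word Heat, while its group was taken from its labels. Each group is 1 library, and the number of mice behind it is unknown here, so that effects of the treatment, of the mouse and of the sampled skin cannot be told apart. No test between groups was possible, and every interval in brackets is a 95% interval for counting error only.

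Macrophages that enter a wound take up dead cells and debris, cut the provisional matrix and release factors for vessels and new tissue. Mmp12 is macrophage elastase, a secreted protease of elastin and other matrix proteins, and Spp1 is osteopontin, a secreted ligand of integrins and CD44. Gpnmb is a glycoprotein of the lysosome and phagosome membrane that is also made by pigment cells, and Rgs1 shortens signals of chemokine receptors and other G protein coupled receptors. Macrophages with Spp1 and Gpnmb are known from healing and scarring tissue and are rich in lipid-handling genes, while resident dermal macrophages carry scavenger and lectin receptors such as Mrc1 and Cd163.

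The 3 genes that name the cells are shown with the 250 bases before their start sites, because their levels separate within the cells below. The sequences are from RefSeq on GRCm38.p6, all on the plus strand, at chr9:7347124-7347373 for Mmp12, chr6:49036268-49036517 for Gpnmb and chr5:104434861-104435110 for Spp1, and Rgs1 is named only. Capitals mark TGANTCA, the palindromic motif of Fos and Jun dimers, read alike on both strands.
Mmp12: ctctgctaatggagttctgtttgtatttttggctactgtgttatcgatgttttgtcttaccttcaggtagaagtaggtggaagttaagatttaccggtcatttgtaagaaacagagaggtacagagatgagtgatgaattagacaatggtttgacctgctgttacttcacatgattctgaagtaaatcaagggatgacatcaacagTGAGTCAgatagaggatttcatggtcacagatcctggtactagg
Gpnmb: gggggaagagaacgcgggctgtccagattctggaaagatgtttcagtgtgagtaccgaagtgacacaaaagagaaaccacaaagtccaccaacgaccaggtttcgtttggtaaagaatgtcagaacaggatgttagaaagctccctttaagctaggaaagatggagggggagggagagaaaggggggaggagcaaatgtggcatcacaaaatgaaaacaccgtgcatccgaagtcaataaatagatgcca
Spp1: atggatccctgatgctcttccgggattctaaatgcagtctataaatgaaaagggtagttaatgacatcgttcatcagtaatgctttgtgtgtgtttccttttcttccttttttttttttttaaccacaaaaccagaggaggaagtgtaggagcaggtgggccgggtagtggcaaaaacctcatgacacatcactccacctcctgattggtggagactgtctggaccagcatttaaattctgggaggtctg
The Mmp12 stretch holds 1 match, TGAGTCA, which begins 44 bases before the start site, and the other sequences hold none before the start. Gpnmb has 1 match in the 50 bases after its start. Of 32851 promoter windows, 6.75% hold the motif in the 250 bases before the start. A match is a string of letters and not a measured site.

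The labelled cell type was checked with 10 macrophage markers that the rule did not use, among them Cd68, Lyz2, Adgre1, Fcgr1, Mertk, Cd14, Ctss, C5ar1 and Lgals3. A member was called macrophage-marked when it had a UMI of these and at least as many of them as of 8 neutrophil markers and as of the keratinocyte and hair markers, a definition added after the data were seen. In the untreated and AN-GelMA libraries 188 members (90.4%) and 274 members (89.5%) were macrophage-marked, but in GelMA only 29 of 70 (41.4%). Among the other GelMA members, 17 were led by neutrophil markers, 22 by keratinocyte or hair markers, and 2 had no macrophage marker. The same 3 kinds numbered 5, 11 and 4 cells in the untreated library and 10, 16 and 6 in AN-GelMA. For GelMA the label therefore holds for fewer than 1 in 2 members, and the gene counts of each comparison with GelMA are given for all members and for the macrophage-marked ones.

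The GelMA members that were not macrophage-marked carried different genes of the rule. The 17 neutrophil-led cells held 238 of the 281 Spp1 UMIs of that library, together with 558 UMIs of S100a9 and 368 of S100a8, the subunits of calprotectin. The 22 keratinocyte- or hair-led cells held 273 of its 458 Gpnmb UMIs, 51.0% of all its member UMIs and 309 UMIs of Tchh, trichohyalin of the inner root sheath. The 29 macrophage-marked cells held 241 of its 280 Mmp12 UMIs.

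**Figure D1:**
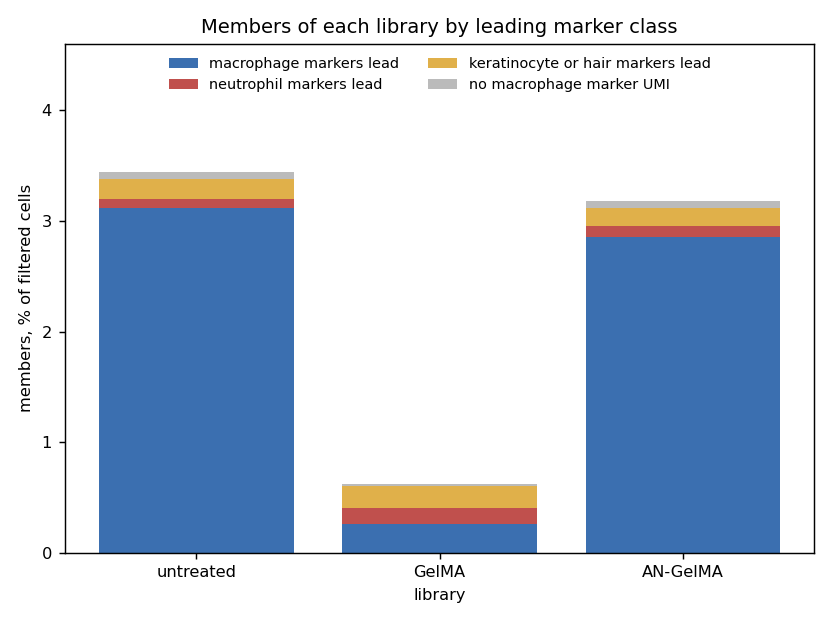
Members as a percent of the filtered cells of each library (vertical axis), with each bar divided by the marker class that led. The whole bar reaches 3.44% in untreated, 0.619% in GelMA and 3.18% in AN-GelMA, and the macrophage-marked part 3.11%, 0.257% and 2.85%.

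Wound macrophages were scarcer in GelMA than in either other library. Members were 3.44% (3.00 to 3.94) of untreated cells, 0.619% (0.483 to 0.782) of GelMA cells and 3.18% (2.84 to 3.55) of AN-GelMA cells. Macrophage-marked members were 3.11% (2.69 to 3.58), 0.257% (0.172 to 0.368) and 2.85% (2.53 to 3.20). The untreated and AN-GelMA intervals overlapped each other and both lay above that of GelMA. Values given in threes from here on follow the order untreated, GelMA, AN-GelMA.

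The balance with resident macrophages had the same order, with untreated and AN-GelMA farther apart. Resident type cells, with at least 3 UMIs of the 5 resident genes and more of these than of the wound genes under the same other limits, numbered 175, 173 and 488. There were 1.19, 0.405 and 0.627 members per resident type cell, and 1.07, 0.168 and 0.562 macrophage-marked members per resident type cell. Members were 20.4%, 7.77% and 14.6% of the cells that met the leukocyte and exclusion limits of the rule. By both measures the untreated wound was highest, then AN-GelMA, then GelMA.

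Members were deepest in GelMA. The median member had 1198, 1457 and 1084.5 UMIs, against 1020, 844 and 989.5 in resident type cells, and the libraries held 6073, 11449 and 9648 barcodes with 8945496, 21613482 and 14156692 UMIs. Summed over members there were 338910, 153084 and 489973 UMIs, so that 1 UMI was worth 2.95, 6.53 and 2.04 CPM (UMIs of a gene per 1000000 UMIs of the same cells). Over macrophage-marked members it was worth 3.51, 20.9 and 2.49 CPM. Pairs of libraries shared 94 to 135 barcodes, and 0 members shared a barcode with a member of another library.

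The 4 genes of the rule were rarely all present in 1 cell. Of the 208 untreated members 60 held 1 of the 4 genes, 63 held 2, 59 held 3 and 26 held all 4. In AN-GelMA the same classes held 105, 99, 64 and 38 of 306 cells, and in GelMA 42, 15, 12 and 1 of 70. Gpnmb was the most widely detected, in 74.0%, 55.7% and 74.2% of members, and Mmp12 was found in 63.5%, 34.3% and 51.6%. Rgs1 was found in 53.4%, 32.9% and 50.0% and Spp1 in 33.7%, 37.1% and 35.6%. As a background, Krt5- and Krt14-rich cells without a leukocyte gene, whose median depths were 1642, 1807 and 1538 UMIs, held Gpnmb in 7.66%, 10.4% and 4.84% and Mmp12 in 1.64%, 0.257% and 0.952%. Spp1 was found in 1.23%, 0.566% and 0.634% of them and Rgs1 in 1.09%, 0.257% and 0.952%. Among these cells Gpnmb was thus the gene with the highest background.

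The levels of the 4 genes describe the members and test nothing. Mmp12 stood at 6745 CPM (6471 to 7027), 1829 (1621 to 2056) and 4710 (4520 to 4907), and Gpnmb at 7660 (7368 to 7960), 2992 (2724 to 3279) and 6235 (6016 to 6460). Rgs1 stood at 2157, 810 and 2049 CPM. All 3 were lowest in GelMA, and within the macrophage-marked members Mmp12 was 7959, 5045 and 5683 CPM and Rgs1 2384, 2052 and 2300. Spp1 went the other way over all members, at 1062, 1836 and 1449 CPM, but over macrophage-marked members it was 1203, 398 and 1657 CPM. The high GelMA value of Spp1 thus belonged to the neutrophil-led cells.

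Cells near the limit of the rule were counted once. With 2 UMIs of the 4 genes and all other limits met there were 32, 18 and 62 cells, with median depths of 950, 1467 and 885.5 UMIs. With exactly 3 there were 21, 12 and 45, with medians of 1181, 1348.5 and 917. Members with 10 or more such UMIs numbered 127, 32 and 149, and the highest cell had 586, 87 and 613.

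Mmp12 and Gpnmb marked partly different cells. Among macrophage-marked members, Mmp12 was the gene with the most UMIs of the 4 in 62 untreated, 8 GelMA and 72 AN-GelMA cells, and Gpnmb in 95, 11 and 133. Spp1 led in 14, 3 and 22 cells, Rgs1 in 11, 4 and 36, and 6, 3 and 11 were tied. Over all members 98, 17 and 122 cells held both Mmp12 and Gpnmb, and 35, 3 and 61 held both Mmp12 and Spp1.

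**Figure D2:**
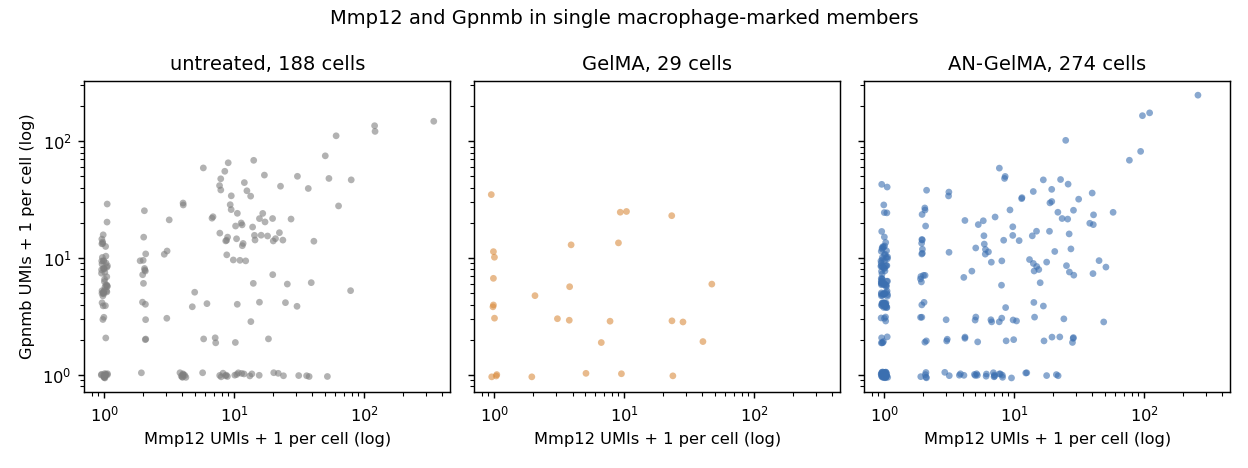
Each point is 1 macrophage-marked member, with its Mmp12 UMIs plus 1 (horizontal, log axis) against its Gpnmb UMIs plus 1 (vertical, log axis), and a small random shift to separate points. The 188 untreated and 274 AN-GelMA cells spread over the same field, with cells along both axes that hold 1 gene without the other, and GelMA has 29 cells.

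Compared with each other, Mmp12-led cells carried more of the hypoxia and inflammatory genes, and Gpnmb-led cells more of the apolipoprotein and fatty acid binding genes. The untreated and AN-GelMA libraries were each divided into Mmp12-led and Gpnmb-led macrophage-marked cells, and a gene was counted when the groups were 1.5-fold apart in the same direction in both. The division used Mmp12 and Gpnmb, so the values describe these cells and are no test. Of 2792 measured genes 4.73% were higher in Mmp12-led and 4.23% in Gpnmb-led cells in both libraries. On the glycolysis and hypoxia list, genes of sugar uptake and the response to low oxygen, 10 of 20 were higher in Mmp12-led cells and 0 in Gpnmb-led cells, with medians of 0.74 log2 in untreated and 0.63 in AN-GelMA beside 0.01 and -0.01 over all measured genes. On the inflammatory list it was 8 of 12, with medians of 0.98 and 1.44. These lists, like all others here, were chosen with earlier results of these data known.

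Single genes show the sizes. Slc2a1, the glucose transporter GLUT1, was at 832 CPM in Mmp12-led against 251 CPM in Gpnmb-led cells of the untreated library, and at 467 against 276 in AN-GelMA. Hilpda, a lipid droplet protein induced by low oxygen, was at 445 against 272 CPM and at 475 against 186. Vegfa, the vessel growth factor, was at 1239 against 475 CPM and at 696 against 414. All 3 were higher in Mmp12-led than in Gpnmb-led cells of both libraries, with log2 ratios of 1.73 and 0.76 for Slc2a1, 0.71 and 1.36 for Hilpda and 1.38 and 0.75 for Vegfa. Spp1-led and Rgs1-led cells held 307 and 803 CPM of Vegfa in untreated. In AN-GelMA they held 944 and 940 CPM, above the Mmp12-led cells. For Slc2a1 they held less than Mmp12-led cells, at 409 and 292 CPM in untreated and 438 and 131 in AN-GelMA.

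Inflammatory mediators were on the same side, and matrix genes were divided. Of 17 matrix genes 4 (Fn1, Plaur, Mmp13 and Mmp19) were higher in Mmp12-led cells and 1, Thbs1, in Gpnmb-led cells, at 58.1 against 377 CPM and 401 against 1114 CPM. Thbs1 was higher still in Spp1-led cells, at 920 CPM in untreated and 4078 in AN-GelMA, and in Rgs1-led cells, at 4086 and 2010. Cxcl2, a neutrophil chemokine, was at 707 against 300 CPM in the untreated library and at 1655 against 409 in AN-GelMA. Acod1, the enzyme that makes itaconate, gave 18 against 3 UMIs and 28 against 9, and Il1a gave 15 against 4 and 23 against 10. Fn1, fibronectin, was at 3059 against 1013 CPM and at 2384 against 716, log2 ratios of 1.59 [1.31 to 1.89] and 1.74 [1.44 to 2.04]. It was not particular to Mmp12-led cells. Rgs1-led cells held 3284 CPM of Fn1 in untreated and 2731 in AN-GelMA, and Spp1-led cells 1534 and 2730. Mmp13, a collagenase, had 28 UMIs in 9 Mmp12-led cells against 1 UMI in 1 Gpnmb-led cell, and 85 UMIs in 10 cells against 3 UMIs in 3 cells. In AN-GelMA 44.7% of the 85 UMIs lay in 1 cell, and the macrophage-marked members as a whole had 136 Mmp13 UMIs, so that some lay in cells led by neither gene. Slc7a11, the cystine transporter, was higher by 2.11 and 2.90 on the log2 scale, and Alas1, the first enzyme of heme synthesis, by 1.57 and 2.01.

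Of the genes higher in Gpnmb-led than in Mmp12-led cells, Apoe, the lipid carrier apolipoprotein E, was the farthest apart. Mmp12-led and Gpnmb-led cells held 29.0 and 594 CPM of Apoe in the untreated library and 139 and 1083 CPM in AN-GelMA, log2 ratios of -4.35 [-6.66 to -2.76] and -2.96 [-3.77 to -2.24]. Spp1-led and Rgs1-led cells held 562 and 584 CPM in untreated, from 11 and 8 UMIs, and 742 and 306 CPM in AN-GelMA. In the untreated library Apoe was thus low in Mmp12-led cells and not particular to Gpnmb-led cells. Fabp5, a fatty acid binding protein, stood at 67.8 against 279 CPM and 98.3 against 419. In Spp1-led and Rgs1-led cells Fabp5 was at 205 and 365 CPM in untreated and 101 and 175 in AN-GelMA, from at most 8 UMIs each. Ms4a7, a macrophage membrane protein, stood at 106 against 503 CPM and 180 against 839. Mertk, a receptor for dying cells, was lower in Mmp12-led cells by 1.36 and 1.73 on the log2 scale, and Lamp1, a lysosome membrane protein, by 0.68 and 0.98. Of 18 measured lipid genes 4 were higher in Gpnmb-led cells (Apoe, Fabp5, Fabp4 and Nceh1) and 0 in Mmp12-led cells. Csf3r, a gene of the neutrophil marker list, was also higher in Gpnmb-led cells, with 2 against 16 UMIs and 5 against 42. Its part in these differences was not tested.

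Some genes differed between the libraries in this division. Il1b gave 9.68 CPM in Mmp12-led and 97.8 in Gpnmb-led cells of the untreated wound, but 590 and 196 in AN-GelMA, log2 ratios of -3.34 and 1.59. The first rests on 1 and 14 UMIs, and in AN-GelMA 1 cell held 62.5% of the Mmp12-led Il1b UMIs. Hmox1, heme oxygenase, was at 2255 against 901 CPM in the untreated library and at 442 against 754 in AN-GelMA. Ctsl was at 329 against 1167 CPM and at 1041 against 780, where 1 cell held 48.0% of the AN-GelMA Mmp12-led UMIs. The differences between libraries were not tested.

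**Figure D3:**
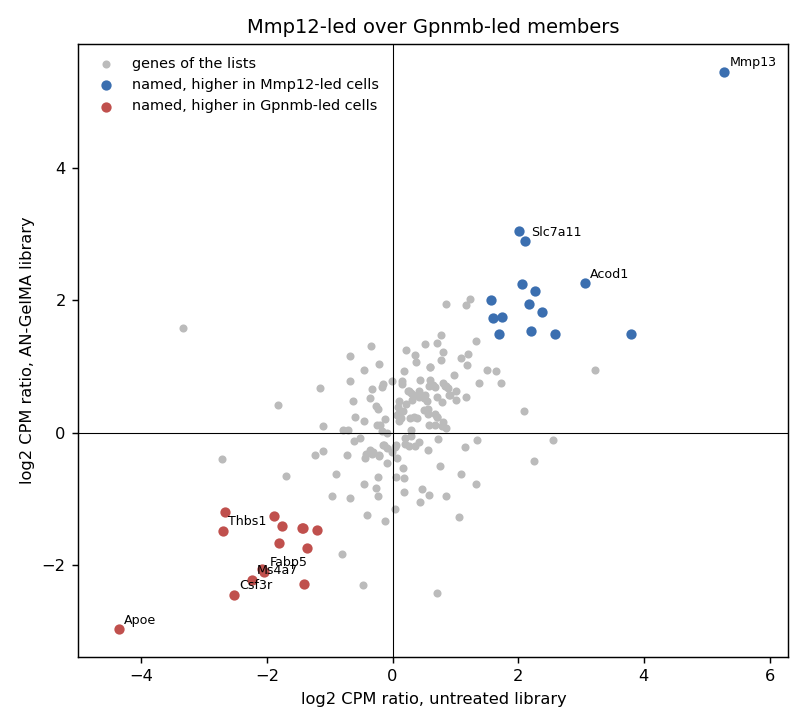
Log2 CPM ratio of Mmp12-led over Gpnmb-led macrophage-marked members in the untreated library (horizontal) against AN-GelMA (vertical), with 1 point per gene. Blue genes such as Mmp13 (5.28 and 5.45) and red genes such as Apoe (-4.35 and -2.96) were named by their smaller ratio, and grey points are genes of the lists.

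Of the 10 hypoxia-list genes that were higher in Mmp12-led cells, 9 had RefSeq promoter windows, and 7 of these held ACGTG, the core letters of a hypoxia response element, on either strand. Among the other genes of the list it was 9 of 15, and over all genes with a window it was 18.5%. The letters were thus common on the whole list and not only in the genes that separated here.

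Over all members, wound macrophages were higher than resident type cells of the same library in genes of the lipid, lysosome, matrix, hypoxia and inflammatory lists. They were lower in genes of the interferon-response, complement and MHC class II lists. The rule divided these cells, so the values are a description. A gene was counted when it was 1.5-fold apart in the same direction in all 3 libraries, as 5.78% of 4413 measured genes were upward and 7.82% downward. With macrophage-marked members 1038 genes could be measured, of which 15.3% were higher and 10.2% lower in all 3. The resident type cells were not filtered by leading markers in this way. Keratinocyte markers summed to 217, 628 and 319 CPM in macrophage-marked members against 1573, 3156 and 2313 in resident type cells. The part of this unequal filter in the counts was not tested.

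Lipid genes were mostly on the upper side. Of 17 measured lipid genes, 10 were higher in all 3 libraries and 0 lower, with median log2 ratios of 1.35, 0.70 and 0.91, beside 0.00, -0.13 and -0.04 over all measured genes. Lpl, the lipoprotein lipase, was at 962, 412 and 1029 CPM in members against 282, 100 and 152 in resident type cells. Cd36, a fatty acid and debris receptor, was at 1230, 255 and 1047 CPM against 87.7, 110 and 200. Lgals3, galectin-3, was at 2355, 921 and 2202 CPM against 414, 239 and 419, and Plin2, a coat protein of lipid droplets, at 1449, 614 and 1231 against 619, 224 and 615. Apoe was the exception, at 395, 1267 and 588 CPM against 1052, 1069 and 1240. Over macrophage-marked members Apoe was 375, 314 and 659 CPM and lower in all 3 libraries. In GelMA 1 cell held 69.1% of the Apoe UMIs of all members.

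Protease and matrix genes followed. Ctsk, cathepsin K, was at 410, 209 and 467 CPM in members against 34.1, 19.1 and 47.3 in resident type cells, log2 ratios of 3.59, 3.45 and 3.30. Plaur, the urokinase receptor, was at 564, 1052 and 510 CPM against 77.9, 134 and 82.3. Thbs1, thrombospondin 1, was at 590, 3109 and 1198 CPM against 112, 267 and 340, but over macrophage-marked members its GelMA level was 419 CPM, that of Plaur 628 and that of Ctsk 649. Of 17 measured matrix genes 6 were higher in all 3 libraries and 0 lower, and of 17 lysosome genes 5 and 0. Over macrophage-marked members it was 9 of 15 for the lysosome list. These 9 include Ctss and Cd68, which are among the macrophage markers used to choose those cells, so this count is partly built in.

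Many hypoxia and inflammatory genes were also on the upper side over all members. Of 19 measured hypoxia genes 9 were higher in all 3 libraries, among them Slc2a1 at 457, 340 and 325 CPM against 63.3, 57.3 and 116. Hilpda was at 301, 647 and 304 CPM against 29.2, 9.55 and 19.3, but over macrophage-marked members its GelMA level was 209 CPM, the lowest of the 3. Vegfa was at 687, 300.5 and 594 CPM against 161, 119 and 103. Of 17 inflammatory genes 11 were higher, with medians of 1.13, 3.84 and 1.91. Over macrophage-marked members it was only 1 of 4 (Cxcl2), with medians of 0.42, 1.54 and 0.28. There Il1b was at 102, 963 and 412 CPM against 302, 205 and 336, and so lower than in resident type cells of the untreated library. Il1rn, the interleukin 1 receptor antagonist, was at 260, 359 and 322 CPM against 9.74, 33.4 and 36.8. Mfge8, a bridging protein for dying cells, was at 454, 105 and 190 CPM against 24.4, 9.55 and 3.50. Il7r, an interleukin 7 receptor gene that also stands on the lymphocyte marker list, had 144, 23 and 168 UMIs in members and 0, 4 and 8 in resident type cells.

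Interferon-response genes were mostly lower in wound macrophages. Of 14 measured, 12 were lower in all 3 libraries and 0 higher, with medians of -1.24, -1.50 and -1.14. Irf7, a transcription factor of this response, was at 59.0, 111 and 104 CPM in members against 346, 263 and 294 in resident type cells, and over macrophage-marked GelMA members at 209 CPM from 10 UMIs. Zbp1, a sensor of nucleic acids, was at 76.7, 39.2 and 127 CPM against 497, 291 and 501. With macrophage-marked members only 5 genes of the list were measured, of which 2 (Zbp1 and Oasl2) were lower in all 3.

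Complement, antigen presentation and resident genes were lower as well. C4b was at 50.2, 65.3 and 91.8 CPM in members against 1339, 1977 and 1423, and over macrophage-marked GelMA members at 188 CPM. Cd74, the MHC class II chaperone, was at 342, 78.4 and 243 CPM against 750.1, 969 and 629. Gas6, a ligand of Mertk and Axl, was at 88.5, 52.3 and 69.4 CPM against 565, 559 and 587. Of 12 complement and Fc receptor genes 8 were lower in all 3 libraries and 1, the integrin Itgb2, higher. Of 13 resident genes outside the rule 12 were lower. On the efferocytosis list, genes for taking up dying cells, 4 of 19 were higher (Cd36, Mfge8, Cd300lf and Anxa1) and 6 lower (Mertk, C1qa, C1qb, C1qc, Gas6 and Stab1).

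AN-GelMA over untreated was the comparison with the most cells. Most members of both libraries were macrophage-marked, and most levels were close: over 4395 measured genes 7.35% were 1.5-fold or more higher in AN-GelMA and 5.6% lower. Over macrophage-marked members 5850 genes were measured, of which 10.3% were higher and 9.49% lower. Here the minimum count was set within this pair, without GelMA, so more genes of low level entered than over all members. The lipid list did not separate the libraries at this fold over all members, with 0 of 18 genes past it and a median of 0.05, beside 0.03 over all genes. Lpl (962 and 1029 CPM), Trem2, a lipid receptor (242 and 249), Lgals3 (2355 and 2202) and Plin2 (1449 and 1231) were within 1.5-fold, with intervals of [-0.11 to 0.30], [-0.37 to 0.46], [-0.23 to 0.04] and [-0.41 to -0.06] on the log2 scale. Vegfa was at 687 and 594 CPM, and Arg1, arginase 1, at 499 and 384 CPM with [-0.69 to -0.07].

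Interferon-response genes were the group most often higher in AN-GelMA. Of 12 measured, 8 were higher and 0 lower, with a median of 0.64, and over macrophage-marked members 8 of 15, with a median of 0.73 beside 0.01 over all genes. Rsad2, viperin, was at 145 CPM in untreated and 327 in AN-GelMA members, a log2 ratio of 1.18 [0.71 to 1.67], and was found in 23 and 38 cells. Irf7 was at 59.0 and 104 CPM, Usp18, which damps interferon signals, at 62.0 and 114, and Zbp1 at 76.7 and 127. Resident type cells of the same libraries had a median of 0.25 over the 15 genes where macrophage-marked members had 0.73. This difference was not tested.

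A few inflammatory genes were higher in AN-GelMA. Il1b, interleukin 1 beta, was at 233 CPM in 17 untreated cells and 518 CPM in 40 AN-GelMA cells, a log2 ratio of 1.15 [0.78 to 1.54]. Over macrophage-marked members it was 102 and 412 CPM in 9 and 31 cells, or 2.02 [1.44 to 2.64]. The top cell held 36.7% and 17.7% of the Il1b UMIs over all members and 24.1% and 27.3% over macrophage-marked ones. Cxcl2 was within 1.5-fold over all members (1127 and 1512 CPM) and past it over macrophage-marked ones (610 and 1365 CPM, 1.16 [0.91 to 1.42]). Its top cell held 35.6% and 9.45% of the UMIs over all members and 16.7% and 10.4% over macrophage-marked ones. The inflammatory list gave 3 of 20 higher and 0 lower over all members and 8 of 22 and 0 over macrophage-marked members. The 8 neutrophil markers summed to 82 and 247 UMIs over all members and to 39 and 105 UMIs over macrophage-marked ones, where S100a8 gave 0 and 7 UMIs, S100a9 4 and 19, and Ly6g and Lcn2 none. Those 8 markers were used to choose the macrophage-marked cells, so the lower sums there are partly built in. The part of neutrophil RNA in the Il1b and Cxcl2 values was not tested.

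Other named genes were of several kinds. Il4ra, the interleukin 4 receptor chain, was at 94.4 and 308 CPM, in 28 and 90 cells, with a log2 ratio of 1.71 [1.15 to 2.31]. Socs3, an inhibitor of JAK and STAT signals, was at 79.7 and 229 CPM, in 23 and 67 cells, with 1.52 [0.90 to 2.18]. Fos, an immediate early transcription factor, was at 381 and 831 CPM, in 60 and 131 cells, with 1.13 [0.84 to 1.42]. Each of these was spread over many cells, and the most that 1 cell held of the AN-GelMA UMIs was 13.9% for Il4ra. Of 19 immediate early genes measured in macrophage-marked members 9 were higher and 1 lower, and over all members 4 of 21 and 2. Enah, an actin regulator, was at 29.5 and 139 CPM in 9 and 22 cells, with 2.23 [1.27 to 3.36], and 1 cell held 27.9% of its AN-GelMA UMIs.

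Matrix genes had a few members apart. Tgfbi, a matrix adhesion protein, was at 496 and 1023 CPM in 69 and 154 cells, a log2 ratio of 1.04 [0.79 to 1.30]. Thbs1 was at 590 and 1198 CPM, and Pdpn, podoplanin, at 239 and 453. Mmp13 was at 88.5 and 280 CPM, with 1.66 [1.08 to 2.28], but in only 11 and 17 cells, of which 1 held 31.4% of the AN-GelMA UMIs. Of 18 matrix genes these 4 were higher and 0 lower, while Fn1 (1723 and 1400 CPM) and the membrane protease Mmp14 (236 and 255 CPM) were within 1.5-fold. For the uptake of dying cells, Axl was at 165 and 290 CPM, the scavenger receptor Stab1 at 266 and 518, Mertk was at 177 and 155, and Anxa1 at 708 in both libraries. Mfge8 was lower in AN-GelMA, at 454 and 190 CPM in 39 and 23 cells, with -1.26 [-1.65 to -0.88].

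Some genes of antigen presentation and single genes of other lists were lower in AN-GelMA. Of 5 measured MHC class II genes 2 were lower and 0 higher, with a median of -0.50, and over macrophage-marked members 4 of 9 were lower and 1, Ciita, higher. H2-Ab1, an MHC class II chain, was at 310 and 137 CPM, a log2 ratio of -1.18 [-1.64 to -0.72], and H2-Aa at 183 and 114, while H2-Eb1 was at 121 and 127. Hmox1 was at 1201 and 759 CPM, with -0.66 [-0.87 to -0.46] over all members and -0.57 [-0.79 to -0.36] over macrophage-marked ones, which is short of 1.5-fold. On its list, iron and oxidative stress, 1 of 9 genes was higher (Slc7a11) and 1 lower (Hmox1), with a median of 0.01. Fgfr1, a fibroblast growth factor receptor, was at 431 and 180 CPM with -1.26 [-1.66 to -0.87], and Ankrd37, a gene induced by low oxygen, at 242 and 91.8 with -1.40 [-1.96 to -0.86]. The hypoxia list as a whole had a median of 0.02, with 2 of 21 genes higher and 2 lower.

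Several named genes rested on few cells or on other cell types. Krt6a, a wound keratin, had 3 and 48 UMIs, where 1 cell held 83.3% of the 48 AN-GelMA UMIs. Krt17 and Krt77 also belong to keratinocytes, whose 7 markers summed to 1151 and 2092 CPM over all members and 217 and 319 over macrophage-marked ones. The latter cells were chosen partly by these 7 markers, so their lower sums are partly built in. S100a8 had 9 and 48 UMIs over all members. Pdlim3, a muscle gene, was lower in AN-GelMA, with 86.8% of its untreated UMIs in 1 cell. Their part in the differences was not tested.

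**Figure D4:**
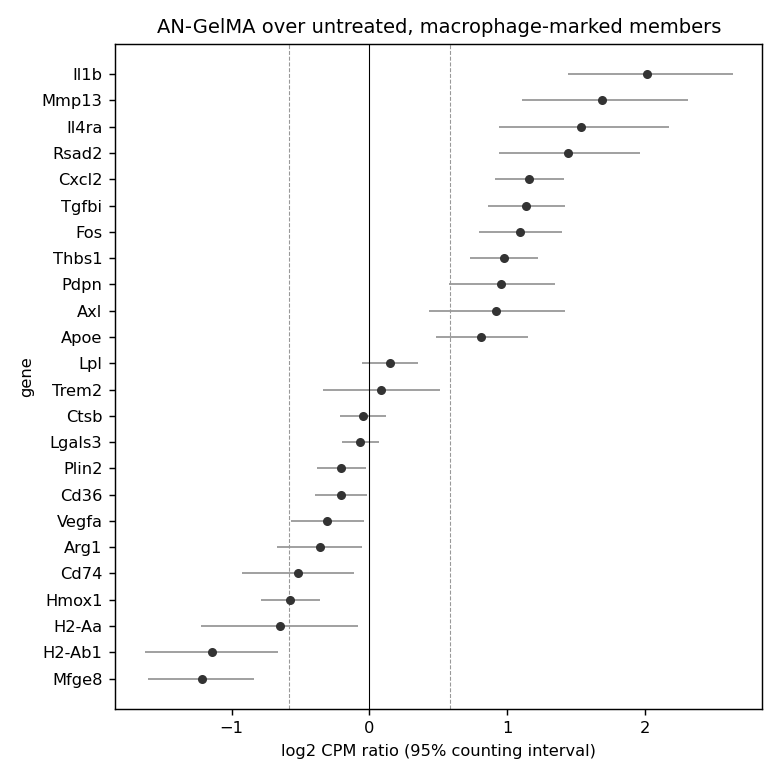
Log2 CPM ratio of AN-GelMA over untreated macrophage-marked members (horizontal, points with 95% counting intervals) for genes of the lists (vertical), with dashed lines at 1.5-fold. Il1b (2.02), Mmp13 and Il4ra lie to the right, Lpl, Trem2, Ctsb and Lgals3 lie near 0, and H2-Ab1 and Mfge8 lie to the left.

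AN-GelMA over GelMA and GelMA over untreated both rest on the 70 GelMA members and share that library. Over all members 26.9% of 4395 genes were higher and 20.5% lower in AN-GelMA than in GelMA, and 21.9% were higher and 27.1% lower in GelMA than in the untreated library. The members of GelMA were of the mixed make-up given above, and its part in these counts was not tested. The neutrophil markers summed to 82, 1070 and 247 UMIs and the 5 hair markers to 28, 401 and 16. Tchh was at 70.8, 2162 and 28.6 CPM and S100a9 at 91.5, 3952 and 194, both highest in GelMA by far. Hoxc13, a hair transcription factor, had 0, 85 and 0 UMIs. Over all members 14 of 20 inflammatory genes were higher in GelMA than untreated and 2 lower, with a median of 1.68 beside -0.05 over all genes. Of 19 lysosome genes 1 was higher and 15 lower, with a median of -1.14.

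Macrophage-marked members gave smaller counts from 29 GelMA cells with 47766 UMIs. Between AN-GelMA and GelMA 22.6% of 1045 genes were higher and 13.8% lower, and between GelMA and untreated 14.8% of 1033 genes were higher and 22.6% lower. The neutrophil markers then summed to 137, 251 and 262 CPM with 2 of 8 detected in GelMA, and the hair markers to 84.1 CPM in untreated, 523 in GelMA and 6 UMIs in AN-GelMA, so hair RNA was still highest in GelMA. The choice of these cells used the neutrophil markers and some of the hair markers, so their lower sums are partly built in. The inflammatory list kept its direction: 5 of 8 genes (Il1b, Cxcl2, Ccl3, Ccl4 and Clec4e) were higher in GelMA than untreated, and the same 5 lower in AN-GelMA than GelMA, with medians of 1.35 and -0.84 beside -0.10 and 0.10 over all genes. Il1b was at 102, 963 and 412 CPM and Cxcl2 at 610, 2261 and 1365. In GelMA Il1b and Cxcl2 rest on 5 and 8 cells, Ccl3 on 5 and Ccl4 on 2. There 1 cell held 41.3% of the Il1b UMIs, 52.6% of the Ccl3 UMIs and 87.0% of the Ccl4 UMIs, with a smaller share for Cxcl2. The 3 Spp1-led GelMA cells held 19 of the 46 Il1b UMIs. For Il1b, Cxcl2, Ccl3 and Ccl4 the kept direction thus rests on few GelMA cells.

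Several phagocytic and matrix genes were lower in GelMA than in either other library. Over macrophage-marked members Fn1 was at 1949, 586 and 1647 CPM, Abca1, a cholesterol exporter, at 845, 377 and 1013, and Cd36 at 1452, 691 and 1257. Dab2, an endocytic adaptor, was at 473, 251 and 881 CPM. In GelMA Fn1, Abca1, Cd36 and Dab2 rest on only 28, 18, 33 and 12 UMIs, in 9, 9, 16 and 8 cells. Of 15 lipid genes 1 was higher and 7 lower in GelMA than untreated, with a median of -0.42, and 5 of 14 were higher and 0 lower in AN-GelMA than GelMA, with 0.46. The lysosome list gave 0 and 6 of 15 (-0.43) and 5 and 0 of 15 (0.38). Both comparisons use the same GelMA cells, so the second direction is not independent of the first.

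For other genes the 3 libraries lay closer over macrophage-marked members than over all members. Lpl was at 1125, 1151 and 1247 CPM and Msr1, a scavenger receptor, at 799, 733 and 716. Over all members these had been 962, 412 and 1029 and 687, 248 and 600. Arg1 was at 593, 440 and 462 CPM, Ctsl at 803, 858 and 956 and Il7r at 491, 461 and 404. For Arg1 the AN-GelMA over GelMA ratio was 1.35 [0.72 to 2.04] over all members and 0.07 [-0.58 to 0.80] over macrophage-marked ones. The latter rests on 21 GelMA UMIs in 6 cells. Its macrophage-marked AN-GelMA over untreated ratio was -0.36 [-0.67 to -0.05]. Hmox1 stayed lowest in GelMA, at 1322, 482 and 888 CPM in 58, 9 and 80 cells.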

How the data were processed

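Single cells of 1 wound library per group (untreated, GelMA, AN-GelMA) were measured with the 10x Genomics Flex v2 probe kit on cells fixed for 24 h. The deposited matrices hold UMI counts per gene and barcode for 19070 features, which the authors produced on GRCm39 and mm39, per the submitters' processing notes. The file headers name Cell Ranger 10.0.0. No source used here gives the cell calling settings, and genes that no probe targets are missing. The members and the gene lists were chosen with earlier results of these data known.

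Barcodes under 250 genes or over 10% mitochondrial UMIs were removed (34, 147 and 36). No doublet caller was run; cells led by markers of other classes are counted in the text. Counts of member cells were summed per library and divided by their total (CPM). A gene was measured when its mean CPM gave at least 10 expected UMIs in the smallest sum, and called at 1.5-fold. In comparisons between libraries this mean and sum were taken over all libraries for all members. For macrophage-marked members they were taken within the pair compared. Ratios carry exact conditional binomial intervals, levels exact Poisson and shares exact Clopper-Pearson intervals. A sum of 0 was taken as 3 UMIs. Named genes were 64 key genes and, per comparison, the 10 highest and 10 lowest by the interval bound nearest to no change (15 each against resident type cells, by the smallest ratio, and likewise for Mmp12-led over Gpnmb-led cells, a division added after the data were seen). The steps were tested on simulated data and run with Python 3.11.15, numpy 2.4.6, scipy 1.17.1, pandas 2.3.3 and matplotlib 3.10.9. Promoter sequences are of another build (GRCm38.p6) and were joined by gene symbol only.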

Additional observations from a re-analysis of the deposited data

Results flagged for a closer look

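Cells with at least 3 UMIs of Mmp12, Spp1, Gpnmb and Rgs1 but no UMI of Ptprc, Csf1r, Fcer1g or Tyrobp lie outside the comparisons above. They were 114 cells or 1.89% (1.56 to 2.26) of the untreated library, 396 cells or 3.50% (3.17 to 3.86) of GelMA and 128 cells or 1.33% (1.11 to 1.58) of AN-GelMA, so GelMA, with the fewest members, had the most of these. In GelMA nearly all of their UMIs of the 4 genes were Gpnmb, 6219 against 31 of Mmp12, 46 of Spp1 and 82 of Rgs1. Of the 396 cells 358 held a keratinocyte or hair marker, 181 Krt35 or Krt71 and 116 Pmel or Dct, a pair of pigment cell genes. In the untreated library Mmp12 gave 386 and Gpnmb 685 UMIs, and in AN-GelMA 198 and 557. A macrophage marker was found in 79 of 114, 216 of 396 and 94 of 128 of these cells.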

How the results depend on the processing

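With 1 library per group there is no replicate to leave out. No paired analysis was possible because 1 library a group leaves no pairs to block on. Alternatives were fixed after earlier results of these data were known, and the restriction to macrophage-marked members was added after the data were seen. Depth limits GelMA most: 1 UMI is 6.53 CPM there over all members and 20.9 CPM over the macrophage-marked ones.

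The share of cells that met the rule was 3.97% in untreated and 3.83% in AN-GelMA with a minimum of 2 UMIs, and 2.83%, 0.434% and 2.42% in untreated, GelMA and AN-GelMA with 5. It was 2.78% in AN-GelMA without Rgs1, 0.303% in GelMA and 2.58% in AN-GelMA after thinning all cells to 1000 UMIs, and 11.8%, 0.797% and 9.76% of the remaining cells when cells with more than 1 UMI of other class markers were left out. The macrophage-marked share of GelMA was 0.257%. GelMA stayed lowest in each of these settings.

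Given in turn for the results as reported, cells thinned before the rule, members thinned, at least 20 expected UMIs, no filter, genes at 4 times the level of all other barcodes, macrophage-marked members, and cells with other class markers left out (93, 5 and 136 members remained), genes past 1.5-fold, AN-GelMA over GelMA, numbered 2083, 183, 639, 991, 9618, 248, 380 and 7. In the same order genes past 1.5-fold, GelMA over untreated, numbered 2154, 188, 636, 1000, 9323, 252, 386 and 7. For genes past 1.5-fold, AN-GelMA over untreated, it was 569, 36, 148, 139, 6652, 42, 1157 and 0. The settings with low counts also measured fewer genes, down to 12 in the last, so the counts do not compare as shares. Macrophage-marked members were filtered within each pair, so AN-GelMA over untreated had 5850 measured genes against 4395 as reported. AN-GelMA over GelMA then had 1045 and GelMA over untreated 1033. Genes past 1.5-fold against resident type cells in all 3 libraries numbered 600 as reported and 265 over macrophage-marked members. The count fell but the share rose. As reported 5.78% of 4413 genes were higher and 7.82% lower, and over macrophage-marked members 15.3% and 10.2% of 1038.

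Lists with a median past 1.5-fold, in the same order of comparisons, were 13, 12 and 1 as reported. They were 3, 6 and 0 with cells thinned, 6, 6 and 0 with members thinned, and 6, 6 and 0 over genes at 4 times the level of other barcodes. Without cells that hold other markers they were 0, 0 and 0, but only 12 genes were measured there. Lists with few measured genes were not counted, so these 0 values could hardly differ and say nothing on the lists. With 20 expected UMIs they were 8 in AN-GelMA over GelMA and 0 in AN-GelMA over untreated, over macrophage-marked members 2 and 2 in the GelMA comparisons, and in AN-GelMA over untreated 0 with a wound score of 2 times the resident score and 2 with median of ratios scaling.

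Reversed log2 ratios were few under the fixed alternatives. Flg in AN-GelMA over untreated was 0.016 with a minimum of 5 UMIs, 0.046 without Rgs1 and 1.07 over macrophage-marked members, and S100a8 was -0.13 with members thinned. In AN-GelMA over GelMA, cells thinned before the rule gave Arg1 -0.36, Hmox1 -0.12 and Lpl -0.08, and Apoe was 0.15 with members thinned, 0.82 without the 5% deepest members and 0.60 by mean shares, where Mfge8 was -0.27. In GelMA over untreated Arg1 was 0.41 and Lpl 0.071 with cells thinned, and Apoe -0.12 without the deepest members. With no filter the list medians were -0.33 for alternative activation and 0.64 for monocyte genes in AN-GelMA over GelMA, and 0.15 for interferon response in GelMA over untreated. Over macrophage-marked members AN-GelMA over GelMA gave 0.12 for the immediate early median, Apoe 1.07, Cebpb 0.21, Hilpda 0.58, Mfge8 -0.34 and Pdgfa -0.031, and GelMA over untreated gave Apoe -0.26, Cebpb -0.007, Ctsl 0.10, Hilpda -0.67, Lpl 0.033 and Mitf 0.089. Most named gene ratios with GelMA also left their counting intervals over macrophage-marked members. In AN-GelMA over GelMA 24 moved without reversing, 5 reversed and 8 stayed within the interval. In GelMA over untreated it was 22, 6 and 9, and in AN-GelMA over untreated 3, 1 and 55. The cause of these changes was not tested.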
